A study of Sus scrofa with 6 samples.

Results

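AMP-activated protein kinase (AMPK) was followed through the transcripts of its subunits in pig loin muscle. The 8 genes were taken by symbol from the deposited table of 25322 genes: the catalytic subunits PRKAA1 and PRKAA2, the scaffold subunits PRKAB1 and PRKAB2, the regulatory subunits PRKAG1, PRKAG2 and PRKAG3, and STK11, which encodes the upstream kinase LKB1. Each symbol had a row of its own in the table, and all 8 passed the filter on low counts, with between 95 and 7779 counts in a library.

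RNA was sequenced from the longissimus dorsi, the long back muscle, of 2 breeds, with 3 libraries labelled Wei and 3 labelled Yorkshire. The Wei pigs were fed commercial feed freely to a slaughter weight of 90 kg; the Yorkshire pigs are said to have been kept similarly, with no slaughter weight given. The labels give no sex, age, genotype or treatment. Nor do they tie the libraries to separate animals, so each p-value reflects only how far these 6 libraries scatter. Titles of Yorkshire libraries begin with LWH and those of Wei libraries with YH, codes that are not explained.

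AMPK is an energy sensor built as a trimer of an alpha, a beta and a gamma subunit. The gamma subunit binds AMP, ADP and ATP, the beta subunit holds the complex together and can bind glycogen, and the alpha subunit carries the kinase activity, which LKB1 switches on by phosphorylation. When energy is short, AMPK favours fuel uptake and oxidation over synthesis. PRKAG3 encodes gamma-3, an isoform found mainly in fast, glycolytic skeletal muscle; in pigs, coding variants of it are known for their effect on muscle glycogen and meat quality, with the RN- allele of Hampshire pigs as the classic case. The values here are transcript levels and do not show which alleles these pigs carried.

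The mix of gamma subunits in the Wei libraries lay apart from that in the Yorkshire libraries, while the values of the beta subunits and STK11 overlapped and their means were close. PRKAG3 had lower values in each Wei library than in any Yorkshire library, and PRKAG2 and PRKAG1 had higher ones. Gamma-3 made up 42.3 ± 10.7% of the gamma transcripts in Wei muscle and 67.2 ± 1.32% in Yorkshire muscle (SD, n = 3 each). None of the single-gene differences passed edgeR's quasi-likelihood test at a Benjamini-Hochberg adjusted p of 0.05: 0 of 8 genes were called, against 5.08% of the 13209 genes tested. At an unadjusted p under 0.05 there were 4 of 8, against 23.3% of all genes: PRKAG2 and PRKAG1 were higher in Wei, as were 11.4% of all genes, and PRKAG3 and PRKAA2 lower, as were 11.8%. For the same 4 genes the values of the breeds did not overlap, against 29.6% of all genes (14.3% higher and 15.3% lower in Wei). DESeq2 called 2 of the 8, PRKAG2 and PRKAG3, against 9.78% of all genes, and limma voom called 0.

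PRKAG3 (ENSSSCG00000016200) lies on chromosome 15, from 133800248 to 133807019 in the build Sscrofa10.2. It stood at 21.5, 29.4 and 19.1 FPKM (the deposited fragment values, scaled for gene length and library size) in Wei replicates 1 to 3, against 37.0, 49.3 and 37.5 FPKM in Yorkshire replicates 1 to 3. The highest Wei library, replicate 2, was thus below the lowest Yorkshire library. The means were 23.3 ± 5.40 FPKM in Wei and 41.3 ± 6.97 FPKM in Yorkshire (SD, n = 3 each). The log2 fold change of PRKAG3, Wei over Yorkshire, was -0.80 ± 0.20 (SE; edgeR, Benjamini-Hochberg adjusted p = 0.0577), a level 1.74-fold higher in Yorkshire. With DESeq2 the adjusted p for PRKAG3 was 0.00812, and with edgeR without Wei replicate 2 it was 0.0354. PRKAG3 passed in 3 of the 8 alternative settings that kept all libraries. Of the 6 edgeR fits with a library left out it passed in 1, and the adjusted p reached 0.182.

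PRKAG2 encodes gamma-2, an isoform best known from the heart, where mutations of the human gene cause a glycogen storage cardiomyopathy. It is on chromosome 18, from 6107243 to 6143620. Its level was 18.7, 7.81 and 9.46 FPKM in Wei replicates 1 to 3, against 4.80, 6.69 and 5.48 FPKM in Yorkshire replicates 1 to 3. Wei replicate 1 stood well above the other Wei libraries, and these in turn were above every Yorkshire library. The means were 12.0 ± 5.85 FPKM in Wei and 5.66 ± 0.954 FPKM in Yorkshire (SD, n = 3 each). The log2 fold change was 1.07 ± 0.27 (SE; edgeR, adjusted p = 0.0573), and 0.73 without Wei replicate 1 (adjusted p = 0.107). With DESeq2 the adjusted p of PRKAG2 was 0.00361, and with edgeR without Wei replicate 2 it was 0.0369.

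PRKAG1 encodes gamma-1, the isoform present in most tissues, and lies on chromosome 5, from 15443377 to 15522457. It measured 28.6, 18.5 and 16.0 FPKM in Wei replicates 1 to 3, against 13.5, 15.9 and 13.8 FPKM in Yorkshire replicates 1 to 3. The breeds did not overlap, but Wei replicate 3 and Yorkshire replicate 2 were almost level. The log2 fold change was 0.55 ± 0.17 (SE; edgeR, adjusted p = 0.106), smaller than that of PRKAG2. Wei replicate 1 was again the highest library.

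**Figure D1:**
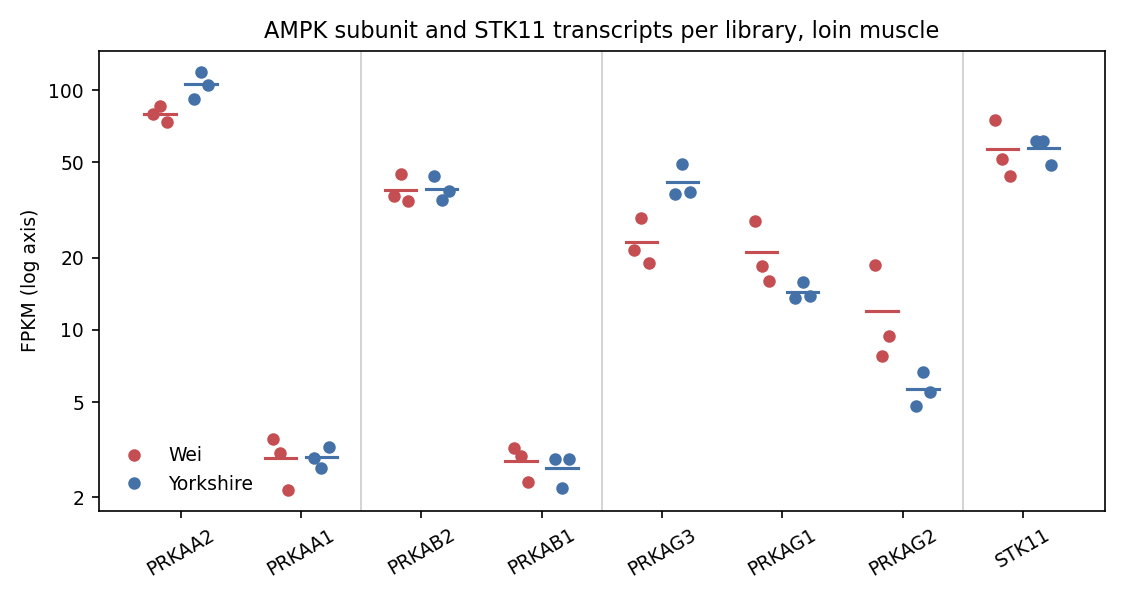
FPKM of each gene in each library on a log axis, with Wei (red) left of Yorkshire (blue); points are libraries and bars are means. PRKAG3 points of Wei (19.1 to 29.4) lie below those of Yorkshire (37.0 to 49.3), PRKAG1 and PRKAG2 points of Wei lie above, and PRKAB1, PRKAB2, PRKAA1 and STK11 overlap.

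Set against each other per length, the gamma isoforms stood in a different ratio in the Wei libraries than in the Yorkshire libraries. PRKAG3 took 31.3%, 52.7% and 42.9% of the summed gamma FPKM in Wei replicates 1 to 3, against 66.9%, 68.6% and 66.1% in Yorkshire replicates 1 to 3. The Yorkshire libraries thus lay within 3 percentage points of each other, and the Wei libraries were both lower and more scattered. The difference in mean share was -24.9 percentage points (exact 2-sided permutation test over the 6 libraries, p = 0.1, the smallest p that 3 against 3 can give; 0.233 adjusted over the 7 shares tested). The share of PRKAG1 was 36.9 ± 4.26% in Wei and 23.6 ± 1.34% in Yorkshire, and that of PRKAG2 was 20.8 ± 6.58% in Wei and 9.21 ± 0.499% in Yorkshire (SD, n = 3 each). Both had the same exact permutation p of 0.1, with no overlap between breeds. The shares of a class add up to the whole in each library, so these gamma differences are not separate results. The alpha and the beta shares likewise mirror each other, so the 7 shares tested are not independent.

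In Yorkshire muscle PRKAG3 was the leading gamma transcript in every library, with 2.72 to 3.11 times the FPKM of PRKAG1. In Wei muscle this ratio was 0.752, 1.59 and 1.19 in replicates 1 to 3, so gamma-1 exceeded gamma-3 in replicate 1. The ratio of PRKAG3 to PRKAG2 was 1.15, 3.76 and 2.02 in Wei replicates 1 to 3, against 6.84 to 7.71 in Yorkshire. The summed gamma level showed no such gap: it was 68.8, 55.8 and 44.5 FPKM in Wei replicates 1 to 3, against 55.4, 71.9 and 56.8 FPKM in Yorkshire replicates 1 to 3, and these ranges overlap.

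**Figure D2:**
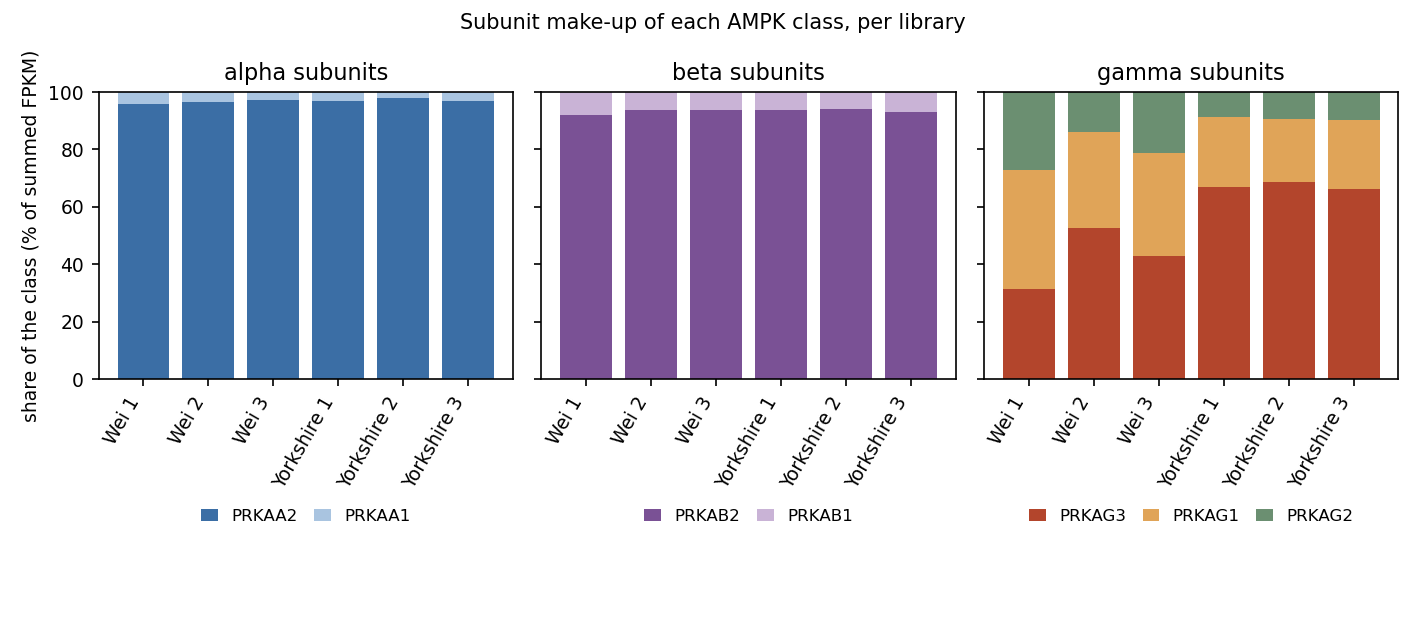
Share of each subunit in the summed FPKM of its class, in percent, for each of the 6 libraries, with Wei left of Yorkshire. PRKAG3 (dark red) fills 66.1% to 68.6% of the gamma bar in Yorkshire libraries and 31.3% to 52.7% in Wei libraries, while the alpha and beta bars look alike in both breeds.

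Among the catalytic subunits, PRKAA2, which encodes alpha-2, the main alpha isoform of skeletal muscle, was the most abundant of the 8 genes. It lies on chromosome 6, from 143547628 to 143573947. It measured 79.4, 86.3 and 74.1 FPKM in Wei replicates 1 to 3, against 92.3, 119.7 and 105 FPKM in Yorkshire replicates 1 to 3. Every Wei library was below every Yorkshire library, by a smaller factor than for PRKAG3. The log2 fold change of PRKAA2 was -0.38 ± 0.14 (SE; edgeR, adjusted p = 0.156). PRKAA1, encoding alpha-1, measured 3.51, 3.07 and 2.15 FPKM in Wei, against 2.93, 2.66 and 3.25 FPKM in Yorkshire, and the breeds overlapped. Its log2 fold change was -0.017 ± 0.19 (SE; edgeR, adjusted p = 0.970).

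Alpha-2 made up 96.5 ± 0.710% of the alpha FPKM in Wei and 97.3 ± 0.496% in Yorkshire (SD, n = 3 each; exact permutation p = 0.3). The PRKAA1 row of the table lies on an unplaced scaffold. A second row, on chromosome 16 from 26857519 to 26868105, has no symbol in the table but is named PRKAA1 by its gene ID in the table of gene names. Reads of the gene could be split between these rows, so the level of PRKAA1 is uncertain. The second row measured 2.41, 2.52 and 1.98 FPKM in Wei, against 2.34, 2.48 and 2.58 FPKM in Yorkshire, and also overlapped. With both rows summed, the log2 fold change was -0.054 (edgeR, adjusted p = 0.851), and the alpha-2 share differed by -1.19 percentage points, against -0.751 with the table's row alone. This sum was added after the data were seen.

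The scaffold subunits had close means and overlapping values. PRKAB2 encodes beta-2, the usual beta isoform of skeletal muscle, and measured 36.1, 44.7 and 34.5 FPKM in Wei replicates 1 to 3, against 43.7, 34.9 and 37.9 FPKM in Yorkshire replicates 1 to 3. The ranges nearly coincide, and the log2 fold change was 0.0060 ± 0.17 (SE; edgeR, adjusted p = 0.988). PRKAB1, encoding beta-1, measured 3.22, 2.98 and 2.33 FPKM in Wei, against 2.91, 2.18 and 2.89 FPKM in Yorkshire. Its log2 fold change was 0.10 ± 0.19 (SE; edgeR, adjusted p = 0.788), and the breeds overlapped. Beta-2 held 93.1 ± 1.10% of the beta FPKM in Wei and 93.6 ± 0.619% in Yorkshire (SD, n = 3 each; exact permutation p = 0.5).

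STK11, the gene of LKB1, measured 75.1, 51.9 and 44.0 FPKM in Wei replicates 1 to 3, against 61.5, 61.7 and 48.7 FPKM in Yorkshire replicates 1 to 3. The Wei libraries spanned the whole Yorkshire range. Its log2 fold change was -0.016 ± 0.18 (SE; edgeR, adjusted p = 0.971). An SE of this size leaves room for differences in either direction for STK11 and the beta subunits. The overlap of the breeds thus does not show that these levels are equal.

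**Figure D3:**
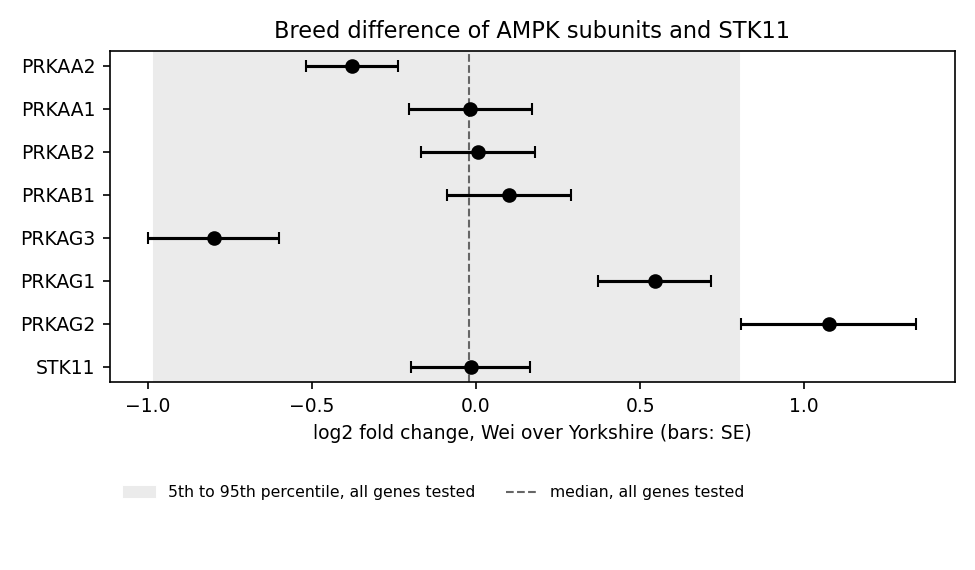
Log2 fold change of each gene, Wei over Yorkshire, with its SE; the grey band spans the 5th to 95th percentile of all 13209 genes tested (-0.98 to 0.80) and the dashed line their median (-0.023). PRKAG2 (1.07) lies beyond the upper edge of the band, PRKAG3 (-0.80) and the other genes lie inside it, and PRKAA1, PRKAB2 and STK11 sit near 0.

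In Wei muscle the order of mean FPKM was PRKAA2, STK11, PRKAB2, PRKAG3, PRKAG1, PRKAG2, PRKAA1 and PRKAB1. In Yorkshire muscle it was the same except that PRKAG3, at 41.3 FPKM, stood above PRKAB2, at 38.8 FPKM. Those neighbours overlapped across Yorkshire libraries, whereas in Wei the lowest PRKAB2 value, 34.5 FPKM, was above the highest PRKAG3 value, 29.4 FPKM. Among the other neighbours in this order, the ranges of PRKAA2 and STK11, STK11 and PRKAB2, PRKAG3 and PRKAG1, and PRKAG1 and PRKAG2 overlapped in Wei. Within each Wei library, however, PRKAA2 was above STK11, STK11 above PRKAB2 and PRKAG1 above PRKAG2. PRKAG3 and PRKAG1 changed order between Wei libraries. In Yorkshire the ranges of STK11 and PRKAG3 overlapped, though STK11 was the higher in each library, while PRKAA2 was clear of STK11 and PRKAG1 of PRKAG2. PRKAA1 and PRKAB1 were the lowest in both breeds and overlapped each other.

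Marker lists of fibre types and of other cell types were set beside these genes. In bulk muscle, fewer fibres of a type and less RNA per fibre cannot be told apart. Of 10 fast fibre markers 7 were tested, and 0 passed edgeR's test, 0 at an unadjusted p under 0.05 and 0 with DESeq2 or limma voom. Their summed level was 42734, 53701 and 57618 FPKM in Wei replicates 1 to 3, against 55267, 57214 and 51453 FPKM in Yorkshire replicates 1 to 3. Of 10 slow fibre markers 8 were tested, all with a positive log2 fold change (median 0.30); 0 passed edgeR's test, 2 had an unadjusted p under 0.05, and DESeq2 and limma voom called 0. Their summed level was 12525, 6164 and 10575 FPKM in Wei replicates 1 to 3, against 8058, 8952 and 8660 FPKM in Yorkshire replicates 1 to 3.

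Wei replicate 1, the library with the lowest gamma-3 share, had the highest slow and the lowest fast marker sum of the 6. Wei replicate 2 had the lowest slow marker sum of all 6 libraries, below every Yorkshire library. Its PRKAG3 level of 29.4 FPKM and gamma-3 share of 52.7% were the highest of the Wei libraries and below every Yorkshire value. Whether fibre type has a part in these values was not tested. Summed adipocyte markers (5 of 8 tested) ranged from 103 to 119.5 FPKM in Wei and from 70.6 to 74.6 FPKM in Yorkshire. Most of that sum was PLIN4, a lipid droplet protein, at 99.5 ± 12.7 FPKM in Wei and 61.8 ± 3.97 FPKM in Yorkshire (SD, n = 3 each). PLIN4 was the 1 adipocyte marker called, by edgeR, DESeq2 and limma voom alike; 2 of the 5 had a positive log2 fold change, and the list median was -0.0092. Summed fibroblast markers (7 of 8 tested) ranged from 236 to 478 FPKM in Wei and from 517 to 898 FPKM in Yorkshire, with no overlap. All 7 had a negative log2 fold change (median -0.87), 4 at an unadjusted p under 0.05; edgeR called 1 lower (DPT, a protein of the extracellular matrix), DESeq2 4 and limma voom 1. None of the listed markers present in the table was at 0 in all libraries, and their part in the AMPK values was not tested.

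Summed endothelial markers (9 of 10 tested) ranged from 29.2 to 47.4 FPKM in Wei and from 38.0 to 44.6 FPKM in Yorkshire, and overlapped. Lymphocyte (3 of 10 tested) and macrophage markers (8 of 10) stood highest in Yorkshire replicate 3, at 7.09 and 80.0 FPKM, against at most 1.99 and 24.6 FPKM in the other 5 libraries. In these 3 lists 0 genes passed edgeR's test, DESeq2 called 0, 1 and 1, and limma voom 0 in each. At an unadjusted p under 0.05 in edgeR's fit there were 1, 3 and 1, all lower in Wei, as were 11.8% of all genes. A positive log2 fold change was seen in 2 of 9 endothelial, 0 of 3 lymphocyte and 0 of 8 macrophage markers. The list medians were -0.10, -1.60 and -0.75. Without Yorkshire replicate 3 the log2 fold change of PRKAG3 was -0.90, that of PRKAG2 1.02 and that of PRKAG1 0.48. Y chromosome genes summed to 6901 counts in Wei replicate 2, as in RNA of a male, and the highest sum elsewhere was 14. Sex thus differed within the Wei libraries, and its part in the AMPK values was not tested. Without Wei replicate 2 the log2 fold changes of PRKAG3, PRKAG2 and PRKAG1 were -1.01, 1.29 and 0.61. Of the edgeR fits with a library left out, only this one called any of the AMPK genes. Total gene counts ranged from 15285197 to 22570075 in Wei libraries and from 17876646 to 27096747 in Yorkshire libraries.

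The sources used here do not say whether counting used strand, so reads of overlapping genes cannot be told apart. The PRKAG3 row lies inside the spans of the rows named STK36 and TTLL11. TTLL11 had 40 to 100 counts in Wei and 118 to 261 in Yorkshire libraries, and STK36 33 to 47 in Wei and 56 to 107 in Yorkshire, while PRKAG3 had 610 to 862 in Wei and 1636 to 1862 in Yorkshire. PRKAG1, with 485 to 724 counts in Wei and 469 to 607 in Yorkshire libraries, overlaps 4 rows. Of these, RHEBL1 and DHH had at most 8 counts in a library. LMBR1L, another of them, had 202 to 308 counts in Wei and 167 to 303 in Yorkshire. Its log2 fold change was 0.60 ± 0.17 (SE, edgeR, adjusted p = 0.0798), close to that of PRKAG1. The fourth, ENSSSCG00000000193, has no symbol and had 116 to 225 counts in Wei and 451 to 525 in Yorkshire. It was lower by 1.32 on the log2 scale in Wei (SE 0.21, edgeR, adjusted p = 0.0182), opposite to PRKAG1. No row overlaps the other 6 genes.

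The pattern of PRKAG3 over the 6 libraries was compared with that of 3710 genes that had a symbol and a mean of at least 20 CPM, the count scaled to the size of its library after TMM. Likeness was the root mean square difference of log2 CPM, each gene centred on its own mean. The nearest was SH3BGR, a small protein abundant in heart and skeletal muscle, at 0.11. It stood at 269, 355 and 310 CPM in Wei replicates 1 to 3, against 504, 598 and 480 CPM in Yorkshire replicates 1 to 3. Next came MLX, the dimer partner of the glucose-responsive factors MLXIP and MLXIPL, at 0.15. AHI1, a protein of the primary cilium, followed at 0.16, then the ribosomal protein gene RPL26 at 0.17 and ANXA5, an annexin that binds phosphatidylserine, at 0.17. RPL26 has many near-identical copies, so its value is uncertain. Of the other AMPK genes in this comparison, PRKAA2 was the nearest to PRKAG3, at 0.26 (rank 64 of the 3710 genes), and PRKAG1 the farthest, at 0.74. PRKAG2, PRKAA1 and PRKAB1 had a mean below 20 CPM and were not compared.

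The genes around AMPK were taken as 8 lists, of regulators, related kinases, downstream genes and the glycogen and nucleotide enzymes linked to the pathway. Together they held 91 tested genes, and 13 were higher in Wei and 0 lower at an adjusted p of 0.05 in edgeR's test. That is 14.3% called higher, against 2.73% of all genes called higher and 2.35% called lower, and the median log2 fold change was 0.16, against -0.023 for all genes. The lists were chosen with earlier results of these data known and no set test was run. These shares therefore only describe the listed genes. The calls depended on single libraries, with 6, 11 and 6 without Wei replicates 1 to 3 and 6, 1 and 4 without Yorkshire replicates 1 to 3. TXNIP passed with each library left out in turn; LPIN1, ULK1 and FNIP1 missed only without Yorkshire replicate 2. Each of the other 9 missed in at least 3 of these 6 fits. With all libraries kept, 9 of the 13 passed in each of the 8 alternative settings. The calls of CAB39, PHKB and ACACB were lost with library size alone (edgeR, adjusted p = 0.0745, 0.0599 and 0.0553), and those of CAB39, PHKB and UGP2 with the replicate block (adjusted p = 0.0578, 0.0584 and 0.0575). Each of these settings left 10 calls.

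Upstream of AMPK, 1 of 14 tested genes was higher. CAB39, the scaffold protein that holds LKB1 active, measured 133, 124 and 117 FPKM in Wei replicates 1 to 3, against 70.0, 88.6 and 91.1 FPKM in Yorkshire replicates 1 to 3 (log2 fold change 0.61 ± 0.13, SE; edgeR, adjusted p = 0.0361). CAB39 missed the threshold whichever library was left out. Of the other kinases that LKB1 activates, 0 of 9 passed, with 3 at an unadjusted p under 0.05 and 0 in DESeq2 or limma voom. SIK3 and MARK3, the most abundant of them, had log2 fold changes of 0.27 ± 0.22 and -0.044 ± 0.13.

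Downstream, 3 of 9 genes of lipid metabolism were higher. LPIN1, a lipin that makes diacylglycerol and co-activates transcription, had a log2 fold change of 1.53 ± 0.19 (edgeR, adjusted p = 0.00906). CPT1B, the muscle carnitine palmitoyltransferase, had one of 1.47 ± 0.30 (adjusted p = 0.0363), and ACACB, the acetyl-CoA carboxylase whose product inhibits CPT1B, one of 0.95 ± 0.19 (adjusted p = 0.0352). CPT1B and LPIN1 are downstream genes rather than established substrates of the kinase. ACACA, the carboxylase of fatty acid synthesis, stood at -0.78 ± 0.33 and did not pass (adjusted p = 0.202). Of 10 genes of glucose handling 2 were higher, TXNIP (2.08 ± 0.24), a brake on glucose uptake, and PFKFB2 (1.71 ± 0.27), which makes an activator of glycolysis.

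Of 11 genes of mTORC1, autophagy and folliculin, ULK1 (1.28 ± 0.18), the kinase that starts autophagy, and FNIP1 (1.14 ± 0.15), a folliculin partner that binds AMPK, were higher. FNIP1 measured 13.5, 15.3 and 15.2 FPKM in Wei replicates 1 to 3, against 6.75, 6.77 and 6.91 FPKM in Yorkshire replicates 1 to 3. Of 14 transcription regulators MEF2A (0.84 ± 0.14) was higher. Among 14 glycogen enzymes, UGP2 (0.77 ± 0.17), which makes the glucose donor for glycogen, and PHKB (0.71 ± 0.15), a subunit of phosphorylase kinase, were higher. PHKB had 2 rows, of which the one with the higher summed counts was used. Like CAB39, PHKB missed the threshold whichever library was left out. Of 11 adenine nucleotide enzymes 2 were higher: AMPD3 (2.49 ± 0.45), an AMP deaminase, and NT5C1A (0.76 ± 0.14), a cytosolic AMP nucleotidase. AMPD1, the other AMP deaminase in this list, was not called. Of the 11 genes 5 had a positive log2 fold change, and the list median was -0.010. Values with ± in these lists are log2 fold changes with SE. DESeq2 called 17 genes of the 8 lists higher and 0 lower, and limma voom 14 and 0. Of all genes, DESeq2 called 9.78% in either direction. In edgeR's fit at an unadjusted p under 0.05, lipid metabolism had 4 genes higher and 3 lower, and glucose handling 3 and 1. Transcription regulators had 3 and 1, and related kinases 2 and 1. The other lists had 0 lower, with 2 higher upstream, 3 of mTORC1, autophagy and folliculin, 4 glycogen enzymes and 2 nucleotide enzymes. At this threshold 11.4% of all genes were higher and 11.8% lower.

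**Figure D4:**
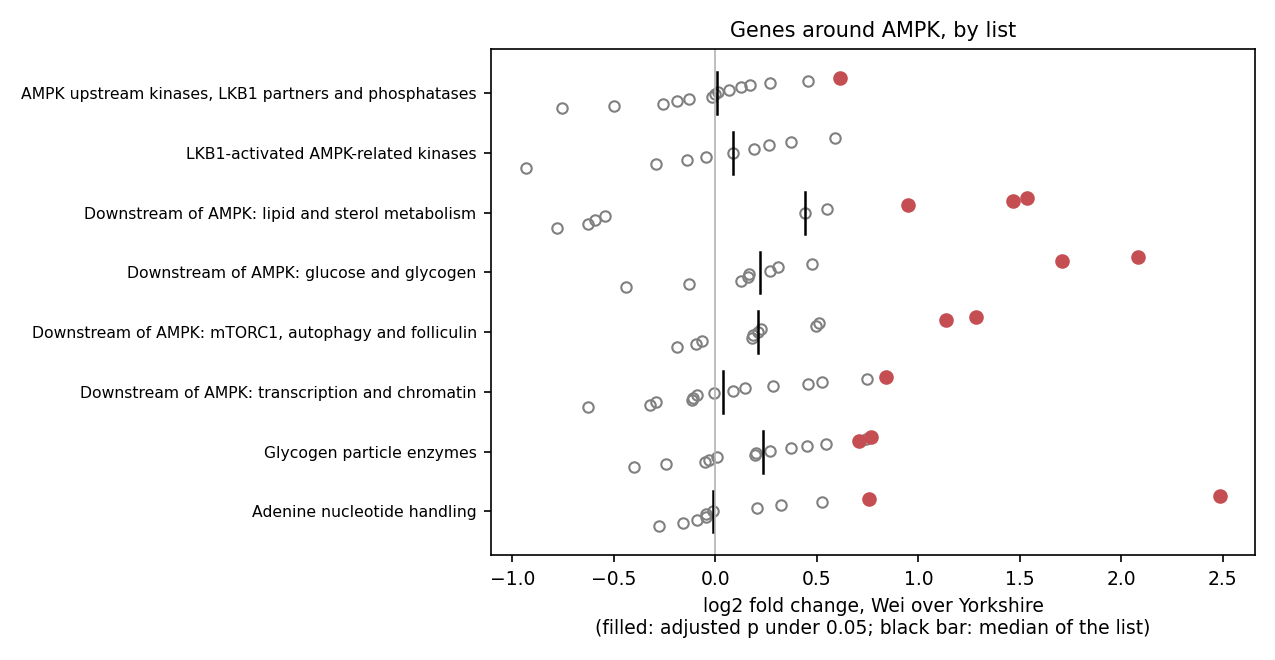
Log2 fold change, Wei over Yorkshire, of each tested gene in 8 lists around AMPK; filled points passed an adjusted p of 0.05 and black bars are list medians. All 13 filled points lie right of 0, with AMPD3 (2.49) and TXNIP (2.08) farthest out, and the list medians lie between -0.01 and 0.44.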

How the data were processed

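The authors deposited 1 table that holds, per the file headers, an unnormalized count and an FPKM for each gene and library. Tools named in the submitters' processing notes, without role or order, are CASAVA 1.7, TopHat2 2.0.9 and edgeR, with the build Sscrofa10.2. The counter, annotation release and strand setting were not given in the sources used here. The deposited FPKM equalled the count over a gene constant and a library constant in 4854 genes with counts above 200 throughout, to within 2.67e-06 on the natural log scale. Every pair of libraries differed by more than sampling noise.

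Genes with low deposited counts were removed (filterByExpr, minimum count 10). The remaining 13209 were TMM-scaled, and the quasi-likelihood F test of edgeR 4.0.16 (R 4.3.3) was run with breed as the only term and Benjamini-Hochberg adjustment over all of them. The SE is the log2 fold change without prior count over the square root of F. FPKM was used for levels and shares. Members, lists and tests were chosen with earlier results of these data known. Named genes are the 8 members, up to 4 called genes per list by adjusted p, or else the 2 most abundant, and the 5 nearest to PRKAG3. Genes named beyond these (ACACA, AMPD1, PLIN4, DPT, the overlapping rows) were chosen after their values were seen. Of 9160 rows with no symbol, 1774 were named by gene ID for the lists. The procedure was tested on simulated data. Alternatives were RLE, library size, no filter, a 1 CPM filter, DESeq2 1.42.0, limma 3.58.1 voom, a replicate block, no mitochondrial genes or ACTA1, count shares and each library left out; summing the PRKAA1 rows was added after seeing the data.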

Additional observations from a re-analysis of the deposited data

How the results depend on the processing

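The count of called AMPK genes, 0 of 8, became 2 with no count filter and 2 with DESeq2 (PRKAG2 and PRKAG3 each time), 1 with the replicate block (PRKAG3, edgeR adjusted p = 0.0325), and 0 to 2 with a library left out, where only the fit without Wei replicate 2 gave calls. It was 0 in the other 6 settings that kept all libraries. The replicate numbers were not taken as pairs, since the correlation of their deviations from the breed means was 0.14, -0.0066 and 0.022 for numbers 1 to 3 and not every library correlated best with its own number. The log2 fold change of PRKAG3 stayed between -0.82 and -0.79 in the 8 settings with all libraries and between -1.01 and -0.66 with a library left out, that of PRKAG2 between 1.02 and 1.08 and between 0.73 and 1.29, and that of PRKAG1 between 0.53 and 0.56 and between 0.37 and 0.65. The breeds do not overlap for these genes, which fixes the direction with any library left out. Genes near 0 changed sign: PRKAB2 was at -0.014 with library size alone, at -0.0036 with the 1 CPM filter and between -0.12 and 0.15 with a library left out. With a library left out PRKAA1 ranged from -0.086 to 0.11, PRKAB1 from -0.023 to 0.22 and STK11 from -0.16 to 0.087. The PRKAG3 share differed by -25.2 percentage points with count shares, and by -30.1 to -19.4 with a library left out. With a library left out the beta shares differed by -0.118 to 0.859 points for PRKAB1 and -0.859 to 0.118 for PRKAB2. Summing the PRKAA1 rows can alter only the alpha shares. Over all genes DESeq2 called 1291 (713 higher, 578 lower in Wei) in place of 671 (361 and 310); the cause was not tested. Leaving out a library left 60 to 394 calls (37 to 259 higher, 23 to 135 lower) and 1 to 11 calls in the lists in place of 13, with fewer samples in each fit. With 3 libraries per breed, exact tests of a share cannot go below p = 0.1.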
